A study of Mus musculus with 14 samples.

Results

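The 33 genes described here encode the ion channels and calcium-handling proteins of the heart muscle cell, and were chosen by name from a list that covers calcium release and reuptake, sodium, calcium and potassium channels, the gap junction and the sodium pump. All 33 were present among the 42396 gene entries of both count tables, and all 33 passed the filter on low counts in both experiments. RNA was sequenced from 14 hearts of female FS6KD mice, which carry a gene-trap knockdown of Ndufs6, a subunit of mitochondrial complex I, on a mixed C57BL/6J and 129/Ola background. In the knockout experiment, 4 Atf3-/-FS6KD hearts were compared with 4 Atf3+/+FS6KD hearts at 12 weeks of age. The Atf3-/-FS6KD mice descended from intercrossed founders in which CRISPR-Cas9 had removed a large stretch from exon 2 to exon 4 of Atf3, a stress-induced transcription factor. In the AAV experiment, 3 hearts labelled MyoAAV2-shAtf3 were compared with 3 labelled MyoAAV2-shCtrl, collected after neonatal injection of a muscle-directed adeno-associated virus and, as the design text can be read, 12 weeks later. No heart without the Ndufs6 knockdown was analysed here, so every value below is a difference between hearts that share it.

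Library totals ran from 33914931 to 134920825 counts in the knockout experiment, where replicates 3 and 4 of both groups were the deeper libraries, and from 30085432 to 40534913 in the AAV experiment. The Atf3 transcript did not check the labels: it averaged higher in the Atf3-/-FS6KD hearts, at 14.4 to 38.7 raw CPM, counts scaled to the library total, against 6.24 to 25.4, and was 12.1 to 20.8 CPM in hearts labelled shAtf3 against 10.3 to 14.2 in those labelled shCtrl. In the knockout, any reads outside the deleted exons are counted with the gene, so its total cannot show the deletion. Where the reads lie within the gene was not examined. The column headings of the AAV count table read opposite to the sample titles: the columns headed Atf3 are the hearts labelled shCtrl, so the lower average of the Atf3 transcript went with the headings and against the titles, although the ranges overlapped. The titles were followed, and every direction given for the AAV experiment is conditional on them, since its sign turns if the headings are right. The tissue was labelled heart, and the ventricular light chain Myl2 stood at 7409 to 10920 raw CPM, but the atrial markers Myl7, Sln, Bmp10 and Mybphl were at or near 0, with at most 0.395 raw CPM in any library, and only 2 of 6 atrial markers passed the filter. A count of 0 in the smallest library allows up to 3 counts, or 0.0997 CPM. Counts from bulk tissue cannot tell fewer cells of a type from less RNA per cell.

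Each heartbeat begins with an inward sodium current that depolarises the myocyte and opens L-type calcium channels. The calcium that enters triggers a far larger release from the sarcoplasmic reticulum through the ryanodine receptor, and the force of contraction follows the size of that release. The pump SERCA2 and the sodium-calcium exchanger then clear the cytosol, while several potassium currents return the membrane to rest. Many of these genes are known to change their expression in failing hearts.

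ATF3 belongs to the family of factors that bind the cyclic AMP response element and the related AP-1 element, so the DNA before a start site that RefSeq gives is shown where the members' results or a motif turn on it. RefSeq promoter windows on GRCm38.p6 were matched for 25 of the 33 genes, in 29 windows, and the 250 bases before each start were searched on both strands. The palindromic element TGACGTCA was in none of the 29 windows and in 1.55% of all 32851 windows. The AP-1 element TGACTCA, which reads TGAGTCA on the other strand, was in the window of Gja1 and in 4.46% of all windows. The first letters of the cyclic AMP response element, TGACGT, which any full element also contains, were in windows of Cacnb2, Fkbp1b and Gja1 and in 6.47% of all windows. These matches describe letters in a window, not binding. The sequences below run 5′ to 3′ on the strand of the gene, with matched motifs in capitals. Kcnj3, Kcnj5 and Hcn4 are shown because they differed most between the experiments when the sample titles of the AAV experiment are followed, Gja1 because it held both motifs, and Cacnb2 for its single match.
Kcnj3: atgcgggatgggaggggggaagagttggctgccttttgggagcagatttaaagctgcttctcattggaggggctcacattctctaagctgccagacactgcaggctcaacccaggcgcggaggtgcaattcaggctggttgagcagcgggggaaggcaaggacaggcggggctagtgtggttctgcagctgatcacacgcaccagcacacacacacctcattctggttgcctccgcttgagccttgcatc
Kcnj5: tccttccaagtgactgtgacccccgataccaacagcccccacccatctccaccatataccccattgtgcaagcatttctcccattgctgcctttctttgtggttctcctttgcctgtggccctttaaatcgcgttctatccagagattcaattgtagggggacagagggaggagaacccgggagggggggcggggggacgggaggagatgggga
Hcn4: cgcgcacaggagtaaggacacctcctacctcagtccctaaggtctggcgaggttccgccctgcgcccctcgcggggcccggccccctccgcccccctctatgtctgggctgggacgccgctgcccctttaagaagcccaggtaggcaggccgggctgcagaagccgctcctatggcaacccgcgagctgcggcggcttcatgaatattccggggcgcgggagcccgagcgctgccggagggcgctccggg
Gja1: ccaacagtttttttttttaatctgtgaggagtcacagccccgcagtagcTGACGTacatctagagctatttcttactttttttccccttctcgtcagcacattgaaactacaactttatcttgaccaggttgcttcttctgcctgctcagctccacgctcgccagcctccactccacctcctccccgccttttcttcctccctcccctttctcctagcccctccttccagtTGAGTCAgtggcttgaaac
Cacnb2: ttctgagccagcTGACGTaattcaaagtag
The Kcnj3 window is chr2:55435720-55435969 on the plus strand, before an internal start and so inside the annotated span of the gene, the Kcnj5 stretch chr9:32344381-32344594 on the minus strand and the Hcn4 window chr9:58822699-58822948 on the plus strand, and none of these held any motif searched. In the Gja1 window, chr10:56377050-56377299 on the plus strand, TGACGT began 201 bases and TGAGTCA 19 bases before the start. The Cacnb2 stretch is chr2:14823963-14823992 on the plus strand, also before an internal start and inside the annotated span, with TGACGT beginning 117 bases before that start.

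The 33 genes spanned more than 3 orders of magnitude in level per length in the control hearts. Levels are given here as CPM per kilobase (kb) of the merged exons in GENCODE M21. Merged exons cover every annotated transcript of a gene, 28790 bases for Ryr2 and 3476 for Kcnip2, and can be longer than any single transcript. The order of the genes therefore depends in part on the annotation. In Atf3+/+FS6KD hearts (n = 4), phospholamban (Pln, the inhibitor of SERCA2) and Atp2a2 (SERCA2) stood first, at 2546 ± 227 and 2511 ± 199 CPM per kb (SD), and their ranges overlapped. They were followed by the calcium buffer Casq2 at 565.9 ± 34.2 and the luminal calcium-binding protein Hrc at 395 ± 49.6. The pore of the ryanodine receptor, Ryr2, stood at 79.6 ± 7.42, close to the channel modulator Kcnip2 at 88.3 ± 13.4, and these neighbours did not differ beyond their spread. The pore of the L-type channel, Cacna1c, stood at 17.7 ± 1.85, and its range overlapped that of Cacna2d1 at 17.8 ± 1.24. At the low end were the pacemaker channel Hcn4 at 2.31 ± 1.21, the silent potassium subunit Kcnv2 at 1.84 ± 0.477, the T-type channel Cacna1g at 1.52 ± 0.129, the ryanodine receptor partner Fkbp1b at 0.916 ± 0.179 and the T-type channel Cacna1h at 0.55 ± 0.304. Among these lowest genes, the ranges of Hcn4, Kcnv2 and Cacna1g overlapped, as did those of Fkbp1b and Cacna1h. Pln and Atp2a2 also led in the hearts labelled shCtrl, and Cacna1h was again the lowest.

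**Figure D1:**
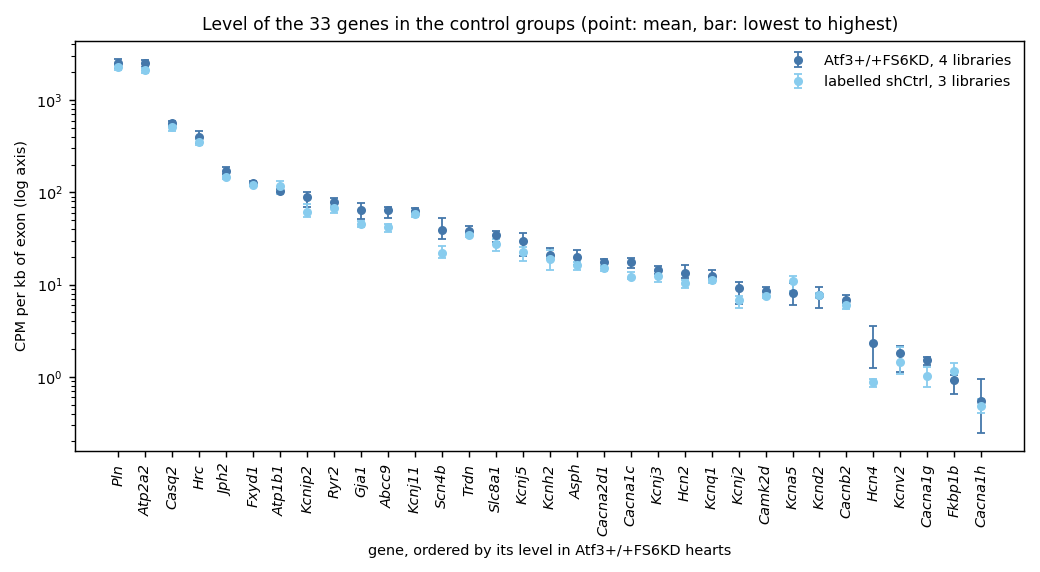
Level of each gene in CPM per kb of exon (log axis) in the control groups of both experiments, with points for the group mean and bars from the lowest to the highest library. In Atf3+/+FS6KD hearts the genes run from Pln at 2546 down to Cacna1h at 0.55 CPM per kb.

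Precision varied between genes. The standard deviation within groups, on the log2 CPM scale, had a median over the 33 genes of 0.21 in the knockout experiment and 0.13 in the AAV experiment. In the knockout experiment it was lowest for the sodium pump regulator Fxyd1, at 0.08, and highest for Cacna1h, at 0.85, with Hcn4 close behind at 0.82. The counts behind these values were never very small: the lowest was 28 counts, for Fkbp1b.

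No member passed the test in the knockout experiment, and the values leaned down: 27 of the 33 genes averaged lower in Atf3-/-FS6KD hearts. Their median log2 fold change was -0.17, while that over all 15592 genes tested was 0.00054. The largest differences in size belonged to the pacemaker channel Hcn4 (-0.95), Cacna1h (-0.65), the sodium channel subunit Scn4b (-0.53) and the potassium channel genes Kcnj5 (-0.47) and Kcnj3 (-0.38). The sodium-calcium exchanger Slc8a1 stood at -0.31. The 6 genes that averaged higher were Jph2, Fkbp1b, Kcnv2, Hcn2, Atp1b1 and Fxyd1.

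The question here was whether loss of Atf3 altered the heart's transcripts under a shared complex I defect, and edgeR's quasi-likelihood test with Benjamini-Hochberg adjustment called 0 of 33 members, against 0% of all genes. Adjusted p-values of the members ran from 0.38 to 0.97. At an unadjusted p under 0.05, 1575 of all genes stood out, and DESeq2 called 208 genes, of which 0 were members. Among members, 5 had an unadjusted p under 0.05 and all 5 averaged lower (Slc8a1, Scn4b, Kcnj3, Kcnj5 and Kcnq1), against 4.69% of all genes lower and 5.41% higher at that threshold. This count of 5 rested on single libraries: it was 13 without the Atf3+/+FS6KD replicate 3 library, 9 without the Atf3-/-FS6KD replicate 4 library and 3 without replicate 2 of either group. The share of all genes at that threshold was 11.0% without the first of these, 9.77% without the second and 8.44% and 8.16% without the replicate 2 control and knockout, in place of 10.1%. For 0 of 33 members did the 4 values of one group lie wholly apart from the other's, where 2.63% of all genes did so with the knockout lower and 3.08% with it higher. The 33 values come from the same 8 libraries and are not independent of one another. Scaling by library size alone left 22 of 33 genes lower, with a median of -0.10, and moved the median of all genes to 0.06. Under that scaling, the genes with an unadjusted p under 0.05 split into 1652 higher and 330 lower, in place of 844 and 731. Among the deeper libraries alone 23 genes were lower (median -0.07), and among the shallower alone 27 (median -0.21).

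After AAV injection, also no member passed the test, and by the titles the values leaned the other way: 27 of 33 genes averaged higher in hearts labelled shAtf3. Their median log2 fold change was 0.09 against -0.0029 over all 15225 genes tested. Hcn4 (0.47) and Kcnj3 (0.44), which codes for a subunit of the acetylcholine-gated potassium channel, had the largest positive values. The T-type channel Cacna1g (-0.40) had the largest negative one. The genes that averaged lower were Fkbp1b, Cacna1g, Kcna5, Kcnv2, Hcn2 and Gja1.

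The edgeR test called 0 of 33 members in the AAV experiment, where it called 82 genes or 0.539% of all. Adjusted p-values of the members ran from 0.23 to 0.99. At an unadjusted p under 0.05, 1933 of all genes stood out. DESeq2 called 308 genes and 1 member, Kcnj3. Members with an unadjusted p under 0.05 were 4 higher (Trdn, Cacnb2, Kcnj3 and Hcn4) and 1 lower (Cacna1g), against 5.05% of all genes higher and 7.65% lower. Here too the count of 5 rested on single libraries: it was 11 without the shCtrl replicate 3 library, 2 without replicate 2 of either group, 3 without the shAtf3 replicate 1 library and 1 without the shAtf3 replicate 3 library. The share of all genes was 15.1% without the shCtrl replicate 3 library and 8.99% to 11.1% without the others named, in place of 12.7%. With library size alone, all genes at that threshold split into 381 higher and 1663 lower in place of 769 and 1164. The 3 values per group lay wholly apart for 6 members, all higher (Trdn, Jph2, Cacnb2, Cacna2d1, Kcnj3 and Hcn4), against 8.48% of all genes higher and 9.94% lower.

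**Figure D2:**
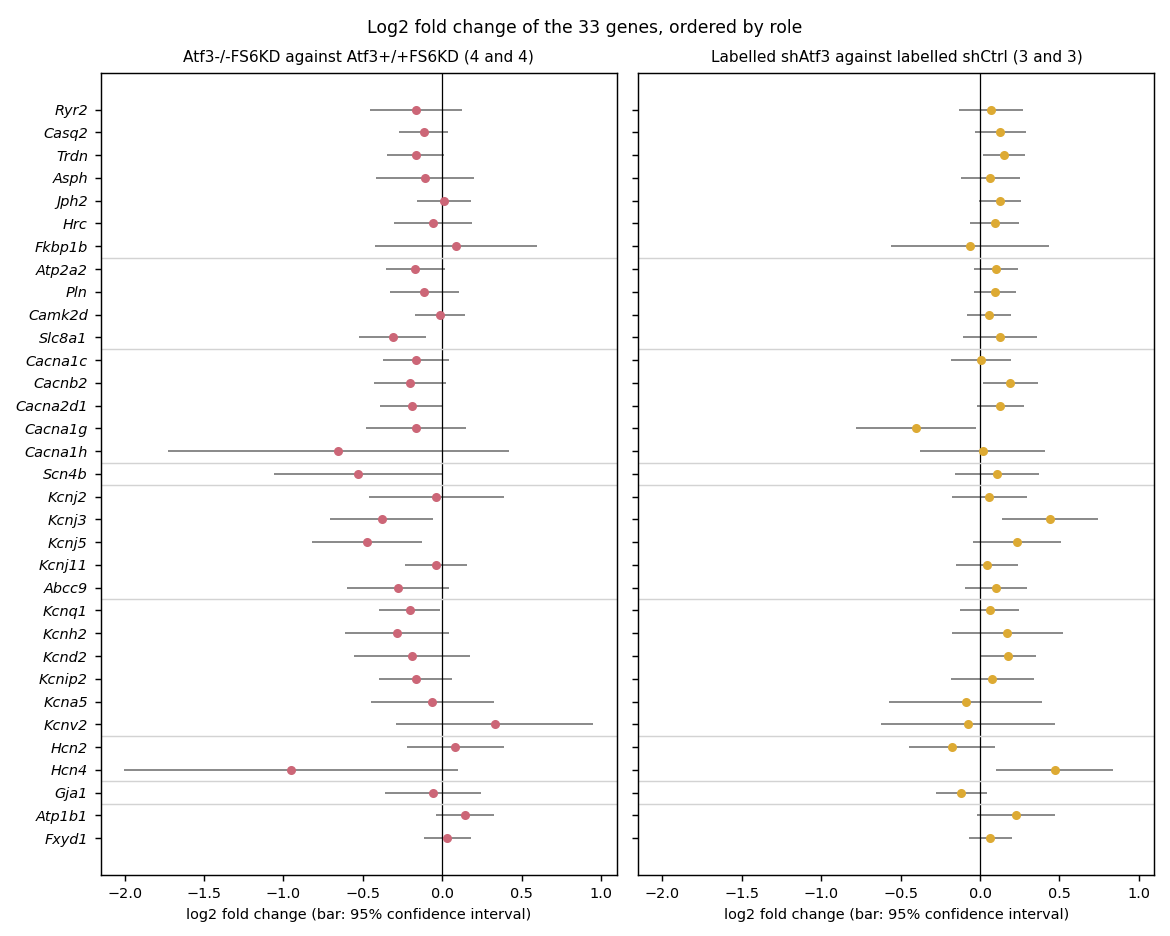
Log2 fold change of each gene (points) with its 95% confidence interval (bars), for Atf3-/-FS6KD against Atf3+/+FS6KD on the left and hearts labelled shAtf3 against those labelled shCtrl on the right, with grey lines between roles. On the left 27 of 33 points lie below 0, and on the right 27 of 33 lie above 0.

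The genes of calcium release from the sarcoplasmic reticulum (Ryr2, Casq2, Trdn, Asph, Jph2, Hrc and Fkbp1b) included none that passed the test in either experiment. In the knockout experiment 5 of 7 averaged lower (median log2 fold change -0.11), and in the AAV experiment 6 of 7 averaged higher, with a median of 0.09. Ryr2, the release channel itself, was measured at 2412, 2503, 2019 and 2232 CPM in Atf3+/+FS6KD hearts and at 2567, 1676, 1837 and 2099 CPM in Atf3-/-FS6KD hearts. Its highest and its lowest value were both in knockout hearts. On the log2 scale the difference was -0.16 ± 0.13 (SE) with a 95% confidence interval from -0.45 to 0.13. Junctophilin 2 (Jph2), which holds the surface and reticulum membranes close together, gave 0.01 ± 0.08 in the knockout experiment, with an interval from -0.16 to 0.18. Its AAV value was 0.13 ± 0.06, with an interval from -0.0063 to 0.26 and an edgeR adjusted p of 0.42, and its values of 656 to 702.5 CPM labelled shAtf3 lay above those of 593 to 644 CPM labelled shCtrl.

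Triadin (Trdn), which anchors calsequestrin to the release channel, had the smallest p of these 7 genes in both experiments. It stood at 305, 326 and 332 CPM in hearts labelled shCtrl and at 352, 369 and 348 CPM in hearts labelled shAtf3. All 3 values labelled shAtf3 were above all 3 labelled shCtrl. This amounted to a log2 fold change of 0.15 ± 0.06 (SE) and the edgeR adjusted p was 0.34. In the knockout experiment Trdn stood at 366, 407, 319.9 and 332 CPM in Atf3+/+FS6KD hearts and at 332, 322, 306 and 309 CPM in Atf3-/-FS6KD hearts. Here the groups overlapped, and the log2 fold change was -0.17 ± 0.08 with an edgeR adjusted p of 0.52.

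Of the genes for calcium reuptake and exchange (Atp2a2, Pln, Camk2d and Slc8a1), all 4 averaged lower in knockout hearts and all 4 averaged higher in hearts labelled shAtf3, with no member called. Slc8a1 (chr17:81373105-81738387), the sodium-calcium exchanger that extrudes calcium from the cell, had the smallest p of all members in the knockout experiment. It stood at 552, 714, 654 and 692 CPM in Atf3+/+FS6KD hearts and at 554, 501, 575 and 476 CPM in Atf3-/-FS6KD hearts. In 3 of the 4 controls the value was above all knockout values, and the replicate 1 control lay among them. The fitted log2 difference was -0.31 ± 0.09 (SE), with an interval from -0.52 to -0.10 and an edgeR adjusted p of 0.38. It was -0.36 among the deeper libraries alone and -0.26 among the shallower alone. In the AAV experiment the Slc8a1 groups overlapped, at 434 to 595 CPM labelled shCtrl and 537 to 587 CPM labelled shAtf3.

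SERCA2 and its inhibitor both averaged lower in knockout hearts and higher in hearts labelled shAtf3. Atp2a2 averaged 15268 ± 1213 CPM (SD, n = 4) in Atf3+/+FS6KD hearts and 13583 ± 1287 CPM (n = 4) in Atf3-/-FS6KD hearts, and Pln averaged 7024 ± 627 and 6499 ± 799.8 CPM. The log2 fold changes were -0.17 ± 0.08 (SE) for Atp2a2 and -0.11 ± 0.10 for Pln, and the groups overlapped for both. Among the deeper libraries alone these values were -0.02 and -0.01, and among the shallower alone -0.31 and -0.21. The per-length ratio of Pln to Atp2a2, taken within each library, lay between 0.914 and 1.16 in the 8 knockout-experiment libraries and between 0.994 and 1.12 in the 6 AAV-experiment libraries. The log2 ratio differed by 0.05 between knockout and control hearts (exact two-sided permutation test, p = 0.49). The calcium/calmodulin-dependent kinase gene Camk2d stood at -0.02 ± 0.07 in the knockout experiment, with an interval from -0.17 to 0.14.

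The 5 calcium channel genes (Cacna1c, Cacnb2, Cacna2d1, Cacna1g and Cacna1h) all averaged lower in knockout hearts (median log2 fold change -0.19), and 4 of 5 averaged higher in hearts labelled shAtf3. The pore gene Cacna1c differed by -0.17 ± 0.09 (SE) in the knockout experiment and by 0.01 ± 0.08 in the AAV experiment. Its accessory subunits Cacnb2 and Cacna2d1 gave -0.20 ± 0.10 and -0.19 ± 0.09 in the knockout experiment. Cacnb2 (chr2:14603861-14988811), the subunit that carries the pore to the membrane, stood at 71.4, 82.1 and 87.0 CPM in hearts labelled shCtrl and at 92.5, 90.8 and 90.8 CPM in hearts labelled shAtf3. All values labelled shAtf3 were higher and lay close together. As a log2 fold change this was 0.19 ± 0.08 (SE), or 0.11 to 0.25 with each library left out in turn, with an edgeR adjusted p of 0.35.

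The T-type channel genes, which conduct at more negative voltages and are known from the nodes and the developing ventricle, were low and variable. Cacna1g stood at 7.82, 10.5 and 13.1 CPM in hearts labelled shCtrl and at 8.33, 7.63 and 7.75 CPM in hearts labelled shAtf3. The lowest shCtrl value lay among the shAtf3 values. On the log2 scale the difference was -0.40 ± 0.17 (SE), or -0.57 to -0.21 with each library left out in turn, with an edgeR adjusted p of 0.36. Cacna1h stood at 2.44, 3.88, 5.87 and 9.29 CPM in Atf3+/+FS6KD hearts and at 1.44, 2.18, 4.07 and 5.78 CPM in Atf3-/-FS6KD hearts. In both groups its 2 higher values were in the deeper libraries, replicates 3 and 4. The deeper libraries exceeded the shallower by 1.35 ± 0.23 on the log2 scale (edgeR adjusted p = 0.0628), where 0 of 33 members and 0.353% of all genes passed that test of depth. At an unadjusted p under 0.05, 8 of 33 members differed with depth, against 14.8% of all genes. Trdn and Cacnb2 were lower in the deeper libraries, and Jph2, Cacna1g, Cacna1h, Kcnj11, Kcnh2 and Hcn2 higher, among them Kcnh2 by 0.35 ± 0.09 and Jph2 by 0.17 ± 0.05. The knockout contrast of Cacna1h was -0.65 ± 0.48, or -1.05 to -0.25 with each library left out in turn. With depth as a term in the fit it was -0.70 ± 0.23 with an edgeR adjusted p of 0.34.

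Scn4b (chr9:45138624-45154155), a beta subunit that modulates the cardiac sodium channel, stood at 162, 155, 199 and 264 CPM in Atf3+/+FS6KD hearts. In Atf3-/-FS6KD hearts it stood at 105, 143, 191 and 99.3 CPM. In 3 of the 4 knockout hearts the value lay below all controls, and the replicate 3 knockout value lay among the controls. This amounted to a log2 fold change of -0.53 ± 0.23 (SE), with an interval from -1.06 to -0.0034 and an edgeR adjusted p of 0.49. It was -0.67 among the deeper and -0.34 among the shallower libraries alone. After AAV injection, it was 0.11 ± 0.12 and the groups overlapped.

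Among the inward rectifier and ATP-sensitive potassium channel genes (Kcnj2, Kcnj3, Kcnj5, Kcnj11 and Abcc9), all 5 averaged lower in knockout hearts (median log2 fold change -0.28), and all 5 averaged higher in hearts labelled shAtf3, with a median of 0.10. Kcnj3 and Kcnj5 code for the subunits that together form the acetylcholine-gated channel, through which vagal signals slow the heart. Kcnj2, which sets the resting potential, gave -0.04 ± 0.19 (SE) in the knockout experiment and 0.06 ± 0.11 in the AAV experiment. Kcnj11 and Abcc9, the pore and the regulatory subunit of the ATP-sensitive channel, gave -0.04 ± 0.09 and -0.28 ± 0.14 in the knockout experiment.

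Kcnj3 (chr2:55411798-55598145) stood at 67.8, 83.6, 70.8 and 75.0 CPM in Atf3+/+FS6KD hearts and at 60.4, 44.5, 50.2 and 72.9 CPM in Atf3-/-FS6KD hearts. In 3 of the 4 knockout hearts the value lay below all controls, and the replicate 4 knockout value lay among the controls. The fitted log2 difference was -0.38 ± 0.14 (SE), with an interval from -0.71 to -0.06 and an edgeR adjusted p of 0.44. It was -0.25 among the deeper and -0.53 among the shallower libraries alone. In the AAV experiment Kcnj3 stood at 56.2, 73.1 and 62.6 CPM in hearts labelled shCtrl and at 75.9, 104.8 and 79.7 CPM in hearts labelled shAtf3. All values labelled shAtf3 were the higher ones, and the replicate 2 value stood well above the other two. As a log2 fold change this was 0.44 ± 0.13 (SE), with an interval from 0.14 to 0.74 and an edgeR adjusted p of 0.23, the smallest of any member. DESeq2 gave an adjusted p of 0.029 for the same contrast, and edgeR without the filter on low counts gave 0.04.

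Kcnj5 (chr9:32314706-32344380) stood at 152, 169, 95.2 and 139 CPM in Atf3+/+FS6KD hearts and at 100.5, 91.3, 109 and 97.7 CPM in Atf3-/-FS6KD hearts. In 3 of the 4 controls the value lay above all knockout values, and the replicate 3 control lay among the latter. On the log2 scale the difference was -0.47 ± 0.15 (SE), with an interval from -0.82 to -0.13 and an edgeR adjusted p of 0.39. It was -0.73 among the shallower libraries alone and -0.18 among the deeper alone, which include that control. In hearts labelled shCtrl it stood at 84.0, 111 and 121 CPM and in hearts labelled shAtf3 at 129, 114 and 128 CPM, where the groups overlapped and the log2 fold change was 0.23 ± 0.12. The per-length ratio of Kcnj3 to Kcnj5 lay between 0.402 and 0.671 over the 8 knockout-experiment libraries, and its log2 value differed by 0.04 between the groups (exact two-sided permutation test, p = 0.80).

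The other partner ratios were taken in the same way within libraries, where scaling cancels, and all 7 pairs were chosen after the values were seen. They paired Casq2 with Ryr2, Cacnb2 with Cacna1c, Kcnj11 with Abcc9, Kcnip2 with Kcnd2 and Fxyd1 with Atp1b1, beside the Pln and Kcnj3 ratios above. Over the 14 comparisons the adjusted p was 1 throughout by exact two-sided permutation tests, whose smallest attainable p is 0.0286 with 4 against 4 and 0.1 with 3 against 3. The difference of the largest size was that of Kcnj11 to Abcc9 in the knockout experiment, at 0.25 on the log2 scale, with overlapping groups.

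**Figure D3:**
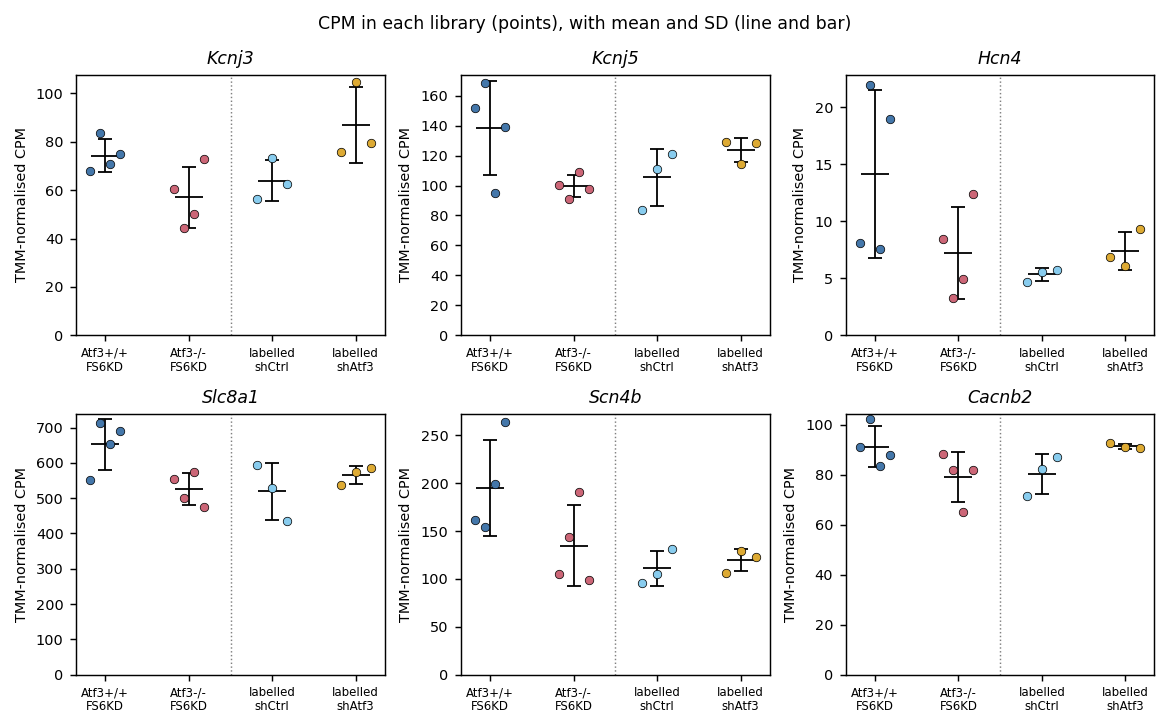
CPM in each library (points), with the mean (line) and SD (bars) of each group, for Kcnj3, Kcnj5, Hcn4, Slc8a1, Scn4b and Cacnb2, with 4 libraries per group left of the dotted line and 3 per group right of it. Kcnj3 runs from 44.5 to 83.6 CPM in the knockout experiment with overlapping groups, and all 3 of its values labelled shAtf3 lie above those labelled shCtrl.

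Of the 6 voltage-gated potassium channel genes (Kcnq1, Kcnh2, Kcnd2, Kcnip2, Kcna5 and Kcnv2), 5 averaged lower in knockout hearts and 4 averaged higher in hearts labelled shAtf3, none of them called. Kcnq1, the pore of the slow delayed rectifier, stood at 46.2, 50.9, 47.6 and 58.5 CPM in Atf3+/+FS6KD hearts and at 40.4, 44.2, 44.3 and 47.3 CPM in Atf3-/-FS6KD hearts. The highest knockout value lay above the lowest control, and the log2 fold change was -0.21 ± 0.08 (SE), at an edgeR adjusted p of 0.46. Kcnh2, the pore of the rapid delayed rectifier, gave -0.28 ± 0.15 in the knockout experiment and 0.17 ± 0.16 in the AAV experiment. For the fast transient outward current that repolarises the mouse ventricle, the pore gene Kcnd2 gave -0.19 ± 0.16 and its partner Kcnip2 gave -0.17 ± 0.10 in the knockout experiment. Kcnip2 ranged from 241 to 350.5 CPM in Atf3+/+FS6KD hearts and only from 266 to 279 CPM in Atf3-/-FS6KD hearts, which lay inside the control range. Kcnv2, a subunit that only modifies other channels, gave 0.33 ± 0.27 and -0.08 ± 0.24. Kcna5, the ultrarapid delayed rectifier, gave -0.06 ± 0.17 in the knockout experiment and -0.09 ± 0.21 in the AAV experiment.

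The pacemaker channel genes Hcn4 and Hcn2 had values of opposite sign in both experiments, and neither passed the test. Hcn4 (chr9:58822949-58863175), which carries the pacemaker current of the sinoatrial node, stood at 8.13, 21.95, 7.57 and 19.0 CPM in Atf3+/+FS6KD hearts and at 8.43, 3.26, 4.91 and 12.4 CPM in Atf3-/-FS6KD hearts. The control values fell into a low and a high pair, and the low pair lay among the knockout values. The smooth muscle marker Acta2 was also highest in control replicates 2 and 4, at 128.5, 300.6, 62.0 and 328 CPM, against 55.2, 97.4, 146.6 and 90.4 CPM in knockout hearts, with a log2 fold change of -1.07 ± 0.49 and an edgeR adjusted p of 0.51. Of the 6 pericyte and smooth muscle markers the other 5 averaged higher in knockout hearts, and the summed level was 978 to 1505 CPM in Atf3+/+FS6KD and 1172 to 1346 CPM in Atf3-/-FS6KD hearts. For Hcn4 itself the knockout log2 fold change was -0.95 ± 0.47 (SE), with an interval from -2.004 to 0.10 and an edgeR adjusted p of 0.53. The Hcn4 value was -0.62 among the deeper and -1.36 among the shallower libraries alone. After AAV injection, Hcn4 stood at 4.71, 5.57 and 5.75 CPM in hearts labelled shCtrl and at 6.85, 6.06 and 9.31 CPM in hearts labelled shAtf3, so the groups did not overlap. The fitted log2 difference was 0.47 ± 0.16, or 0.27 to 0.60 with each library left out in turn, with an edgeR adjusted p of 0.28. Of 5 sinoatrial node markers, 3 passed the filter, with a summed level of 14.5 to 18.4 CPM in Atf3+/+FS6KD and 17.3 to 20.6 CPM in Atf3-/-FS6KD hearts. By the titles it was 14.4 to 15.5 CPM labelled shCtrl and 13.97 to 16.9 CPM labelled shAtf3. There the marker Tbx3 was, like Hcn4, higher without overlap (0.28 ± 0.10, edgeR adjusted p 0.30), while the other 2 of the 3 averaged lower. The part of these markers in the Hcn4 values was not tested. Hcn2 gave 0.08 ± 0.14 in the knockout experiment and -0.18 ± 0.12 in the AAV experiment.

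The gap junction gene Gja1 (connexin 43), whose window held both motifs shown above, averaged 666 ± 132 CPM (SD, n = 4) in Atf3+/+FS6KD hearts and 640.0 ± 55.0 CPM (n = 4) in Atf3-/-FS6KD hearts. As a log2 fold change this was -0.06 ± 0.13 (SE) with an interval from -0.36 to 0.25, and it was -0.12 ± 0.07 in the AAV experiment. Atp1b1, the beta subunit of the sodium pump, averaged higher in both experiments, at 0.14 ± 0.08 and 0.23 ± 0.11, with edgeR adjusted p-values of 0.58 and 0.43. Its regulator Fxyd1 (phospholemman) gave 0.03 ± 0.06 and 0.06 ± 0.06. The groups overlapped for all of these.

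**Figure D4:**
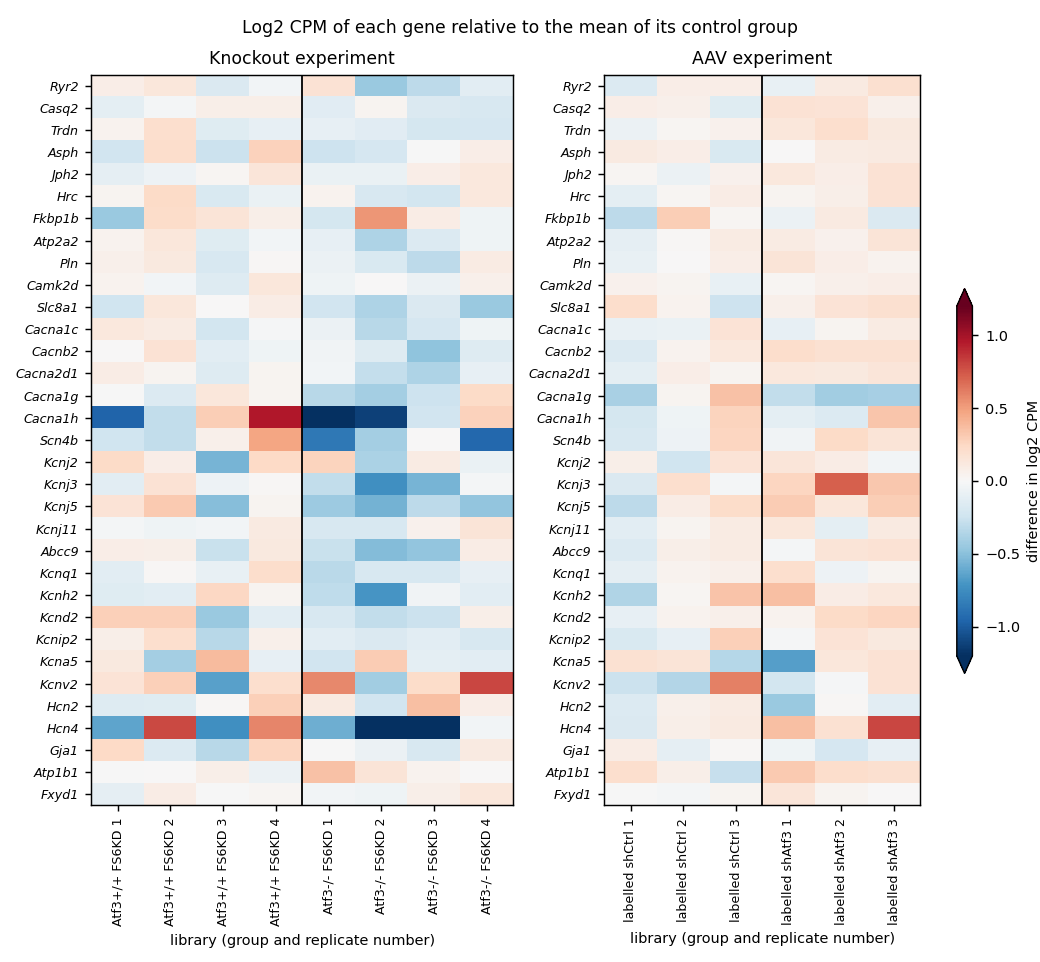
Log2 CPM of each gene in each library as the difference from the mean of its control group, with red for higher and blue for lower and colours that saturate at 1.2 in either direction, for the knockout experiment on the left and the AAV experiment on the right. Hcn4 and Cacna1h vary most within groups on the left, and Kcnv2 and Kcna5 on the right.

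The contrast was then compared between the experiments, as the knockout effect minus the AAV effect in a single fit of all 14 libraries. With the titles followed, this difference was negative for 27 of 33 members, with a median of -0.24 against 0.00091 over all 15708 genes tested. By the titles its size was greatest for Hcn4 at -1.42 ± 0.62 (SE), Kcnj3 at -0.82 ± 0.22 and Kcnj5 at -0.71 ± 0.23. The edgeR test called 0 of 33 members, against 26 genes or 0.166% of all, and the smallest adjusted p among members was 0.0998, for Kcnj3, followed by 0.15 for Kcnj5. At an unadjusted p under 0.05, 2664 of all genes stood out. Members at that threshold were 9, all negative (Casq2, Trdn, Atp2a2, Slc8a1, Cacnb2, Cacna2d1, Kcnj3, Kcnj5 and Hcn4), against 7.53% of all genes negative and 9.43% positive. DESeq2 called 669 genes and 2 members, with adjusted p-values of 0.0148 for Kcnj3 and 0.0461 for Kcnj5. Leaving out the Atf3+/+FS6KD replicate 3 library gave Kcnj5 an edgeR adjusted p of 0.0349, while the genes called rose from 26 to 168 of 15690. Scaling by library size alone moved the median of all genes to 0.11 and split the genes at an unadjusted p under 0.05 into 2575 positive and 418 negative, in place of 1481 and 1183. Under that scaling 22 of 33 members were negative and Kcnj3 stood at -0.72. These values depend on the titles. With the AAV groups set by the column headings instead, an alternative added after the data were seen, edgeR called 0 of all genes and 0 of 33 members, and 651 of the 15708 genes and 2 members (Cacna1g and Atp1b1) had an unadjusted p under 0.05. The members' median was then -0.06, with 22 of 33 negative. Cacna1h at -0.63 ± 0.62 and Cacna1g at -0.57 ± 0.24 were then the largest in size, while Hcn4 stood at -0.47 ± 0.62, Kcnj5 at -0.24 ± 0.23 and Kcnj3 at 0.06 ± 0.22.

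Other genes of the same systems were counted from a list of 59 further ion channel and calcium genes, of which 57 were tested in the knockout experiment and 54 in the AAV experiment. None passed the edgeR test in either experiment or in the difference between them. In the knockout experiment 38 averaged lower and 19 higher, and 10 of the 57 lower and 3 higher had an unadjusted p under 0.05, against 4.69% and 5.41% of all genes. The smallest p belonged to Ank3 and Ank2, the ankyrins that anchor channels and exchangers in the membrane. Ank3 stood at 97.0, 97.1, 105 and 93.9 CPM in Atf3+/+FS6KD hearts and at 81.8, 83.9, 72.4 and 88.2 CPM in Atf3-/-FS6KD hearts, without overlap, and the log2 fold change was -0.27 ± 0.07 (SE), at an edgeR adjusted p of 0.32. Ank2 gave -0.30 ± 0.09 without overlap, with an edgeR adjusted p of 0.37. The calcium pump Atp2a3, which shares its name with an alternate-locus copy in the tables and is therefore uncertain, gave 0.29 ± 0.09.

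In the AAV experiment 28 genes of that list averaged higher and 26 lower, with 7 of the 54 higher and 8 lower at an unadjusted p under 0.05, against 5.05% and 7.65% of all genes. Among those with the smallest p were the sodium channel beta subunit Scn3b (-0.70 ± 0.22), connexin 45 (Gjc1, -0.26 ± 0.08) and the calcium channel subunit Cacnb1 (-0.45 ± 0.15), which averaged lower in hearts labelled shAtf3, without overlap. For the difference between experiments, with the titles followed, the smallest p belonged to caveolin 3 (Cav3, -0.31 ± 0.08, edgeR adjusted p 0.0888), Ank2 (-0.51 ± 0.13), Ank3 (-0.39 ± 0.10) and Popdc2 (-0.39 ± 0.11). This ranking depends on the titles. By the column headings edgeR called 0 of all genes, and values of these genes are not given here. Cav3, a coat protein of the membrane pits where several channels lie, stood at 71.3 to 79.5 CPM in Atf3+/+FS6KD hearts and 64.6 to 69.1 CPM in Atf3-/-FS6KD hearts. After AAV injection, it stood at 66.8 to 68.0 CPM labelled shCtrl and 71.8 to 78.5 CPM labelled shAtf3. The groups did not overlap in either experiment, and by the titles the order was opposite.

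Markers of cell types were read beside these results, because the counts come from bulk tissue. The mean log2 CPM of the 33 genes was 7.22 to 7.46 in Atf3+/+FS6KD hearts and 7.04 to 7.31 in Atf3-/-FS6KD hearts, and 6.99 to 7.17 against 7.13 to 7.21 in hearts labelled shCtrl and shAtf3. Of 8 cardiomyocyte markers, 7 averaged lower in knockout hearts, with summed levels of 59782 to 76806 CPM against 71462 to 83928. In the AAV experiment 7 of 8 averaged higher, at 71430 to 76022 against 66875 to 74980 CPM. The 6 fibroblast markers averaged higher in knockout hearts, with summed levels of 1884 to 2479 CPM against 1563 to 1859, and lower in hearts labelled shAtf3, at 1550 to 1618 against 2010 to 2649 CPM. These sums did not overlap in either experiment. After AAV injection, the collagen genes Col1a1, Col1a2 and Col3a1 passed the edgeR test, at -0.84, -0.82 and -1.05 with adjusted p-values of 0.0293, 0.0293 and 0.0328. The 5 macrophage markers averaged higher in knockout hearts and lower in hearts labelled shAtf3. The part of these markers in the members' values was not tested.

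**Figure D5:**
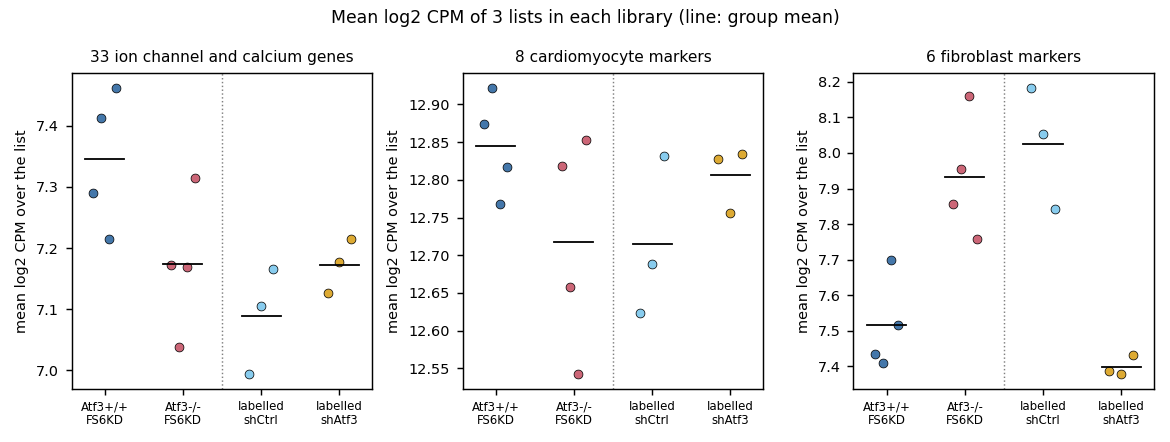
Mean log2 CPM in each library (points) and in each group (lines) over the 33 ion channel and calcium genes, 8 cardiomyocyte markers and 6 fibroblast markers. The fibroblast markers lie higher in all 4 Atf3-/-FS6KD hearts than in the controls and lower in all 3 hearts labelled shAtf3 than in those labelled shCtrl, while the members' groups overlap in both experiments.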

How the data were processed

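RNA was extracted from whole hearts, libraries were prepared with a stranded mRNA kit and sequenced single-end on a NovaSeq6000 by the authors. Reads were mapped to GRCm38.p6 and counted with featureCounts 2.0.0, per the submitters' processing notes; the aligner is not given in the sources used here. The deposited values are estimated counts (expected counts), of which 19.3% to 24.4% per library were not whole, and they were rounded before testing. No column of the tables was left without a sample. Samples were grouped by their titles.

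Each comparison was fitted in edgeR 4.0.16 (R 4.3.3) with TMM normalisation, after keeping genes above 1 CPM in at least 1 library, by the quasi-likelihood test with Benjamini-Hochberg adjustment over all genes tested and a threshold of 0.05. The difference between the experiments was the interaction in a fit of all 14 libraries. The per-library CPM are TMM-normalised unless called raw, and log2 CPM used a prior count of 2. The scripts were tested on simulated data. The depth was 30085432 to 134920825 counts per library, and the lowest count of a member was 28. Each library was taken as 1 mouse. Alternatives were other scalings, filters and tools (limma 3.58.1, DESeq2 1.42.0), a replicate block, depth, leaving out each library, and, added later, the AAV groups as the column headings read. Values were given for all 33 members; for the further list of 59 genes, counts and up to 4 genes with the smallest p in each comparison, of which some are not reported here. Promoter sequences are from RefSeq on GRCm38.p6, less the bases after each start. Bases inside the annotated gene were left out for Kcnj5, while the Kcnj3 and Cacnb2 stretches lie before internal starts, inside the annotated genes. Sequences of the other 8 members were not used here. The members and lists were chosen with earlier results of these data known.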

Additional observations from a re-analysis of the deposited data

Results flagged for a closer look

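Within the groups of 4, a single library stood apart from the other 3 for 3 genes out of 66 gene and group combinations examined by Dixon's test, in which chance marks about 1 in 20. Kcnj11 stood at 251.4 CPM in the Atf3+/+FS6KD replicate 4 library, against 225.8 to 230.0 CPM in the other 3. Abcc9 stood at 445.4 CPM in the Atf3+/+FS6KD replicate 3 library, against 563.2 to 582.5 CPM. Kcnv2 stood at 5.776 CPM in that same replicate 3 library, against 10.2 to 11.1 CPM. Groups of 3 were not examined in this way, and no member's difference between the experiments passed the edgeR test.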

How the results depend on the processing

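The median log2 fold change of the 33 genes kept its sign in both experiments under all alternatives run that follow the titles, with a knockout range of -0.21 (shallower libraries alone) to -0.075 (deeper alone). When each library was left out in turn, the knockout median lay between -0.19 and -0.11 and the AAV median between 0.051 and 0.14. No member was called in the knockout experiment under any alternative run. In the AAV experiment 1 member, Kcnj3, was called by DESeq2 and 1, the same gene, by edgeR without the low-count filter. In the difference between experiments 2 members, Kcnj3 and Kcnj5, were called by DESeq2, and leaving out each library gave 0 to 1, the 1 being Kcnj5 without the Atf3+/+FS6KD replicate 3 library; the cause was not tested. Members with an unadjusted p under 0.05, 5 in each experiment, numbered 3 to 13 in the knockout experiment and 1 to 11 in the AAV experiment when each library was left out, while the share of all genes at that threshold ran from 7.12% to 11.0% and from 8.99% to 15.1%. With the replicate block they numbered 10 and 8, at 12.7% of all genes in both, and without the filter 8 in each, at 7.77% and 9.58%, in place of 10.1% and 12.7%. They numbered 9 in the knockout experiment with depth as a term (12.1% of all genes), 10 among the shallower (5.9%) and 2 among the deeper libraries alone (7.09%). With library size alone they numbered 3 in the AAV experiment (13.4%), and 5 in place of 9 in the difference (19.1% in place of 17.0%). The deviations of same-numbered hearts correlated at 0.145, 0.086, 0.006 and 0.127 in the knockout experiment and at 0, 0.151 and 0.083 in the AAV experiment. Between hearts of other numbers the correlations ran from -0.244 to 0.19 and from -0.178 to 0.089. These values do not settle whether the replicate numbers pair the hearts. With the number as a replicate block, 0 members were called in either experiment or in the difference between them, and the genes called in all went from 82 to 20 in the AAV experiment and from 26 to 56 in the difference. DESeq2 called 208, 308 and 669 genes in all in the knockout experiment, the AAV experiment and the difference, edgeR without the filter 2, 304 and 61, and leaving out single libraries gave 0 to 15, 1 to 285 and 0 to 168. For the difference, library size alone called 205 genes, limma 48 and merged copies 43.

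Signs turned only for member values that did not pass the edgeR test, which are given here. With library size alone, the knockout values were 0.0016 for Hrc, 0.045 for Camk2d, 0.024 for Kcnj2, 0.022 for Kcnj11 and 0.0023 for Gja1. The AAV values under that scaling were -0.033 for Cacna1c and -0.023 for Cacna1h, and the differences were 0.028 for Camk2d, 0.0054 for Kcnj2, 0.021 for Kcnj11, 0.018 for Atp1b1 and 0.0702 for Fxyd1. Among the deeper libraries alone, Asph stood at 0.0027, Hrc at 0.094, Fkbp1b at -0.095, Kcnj2 at 0.11, Kcnj11 at 0.062 and Kcnd2 at 0.19. Among the shallower alone, Casq2 stood at 0.021, Kcna5 at 0.18, Kcnv2 at -0.061 and Fxyd1 at -0.032. With the AAV groups set by the column headings, an alternative added after the data were seen, the AAV values change sign by construction, and the differences that turned were 0.015 for Casq2, 0.14 for Jph2, 0.034 for Hrc, 0.044 for Camk2d, -0.57 for Cacna1g, 0.024 for Kcnj2, 0.062 for Kcnj3, 0.0050 for Kcnj11, -0.15 for Kcna5, -0.092 for Hcn2, -0.17 for Gja1, 0.37 for Atp1b1 and 0.10 for Fxyd1; 0 genes in all were called. Leaving out each library, the knockout values that changed sign ranged from -0.066 to 0.031 for Camk2d, -0.071 to 0.17 for Fkbp1b, -0.0040 to 0.061 for Fxyd1, -0.16 to 0.029 for Gja1, -0.022 to 0.19 for Hcn2, -0.13 to 0.021 for Hrc, -0.026 to 0.063 for Jph2, -0.19 to 0.077 for Kcna5, -0.11 to 0.0095 for Kcnj11 and -0.19 to 0.068 for Kcnj2. The AAV values did so from -0.023 to 0.12 for Asph, -0.038 to 0.094 for Cacna1c, -0.16 to 0.16 for Cacna1h, -0.22 to 0.10 for Fkbp1b, -0.24 to 0.14 for Kcna5, -0.013 to 0.23 for Kcnip2, -0.021 to 0.13 for Kcnj11, -0.053 to 0.14 for Kcnj2, -0.014 to 0.13 for Kcnq1, -0.25 to 0.29 for Kcnv2 and -0.0078 to 0.14 for Ryr2. The differences did so from -0.19 to 0.033 for Atp1b1, -0.025 to 0.29 for Fkbp1b, -0.073 to 0.0083 for Fxyd1, -0.044 to 0.15 for Gja1, -0.21 to 0.17 for Kcna5 and -0.25 to 0.013 for Kcnj2. Apart from the AAV values by the headings, all other member values kept their sign under every alternative run, while several partner ratio differences, none of them called, turned sign.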
